A study of Mus musculus with 12 samples.

Results

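The genes Igfbp3, Smoc2, Il1r2, Slco2a1, Thbs2, Fcgbp, Ctsl and Col16a1 are 8 of the 22416 genes counted, and they were chosen by name because they marked a set of basal wells when the wells of these plates were clustered. Their difference between clusters is therefore a description and was not tested. Ribosome footprints, which are mRNA pieces protected by a ribosome when the rest is digested, were counted in single cells sorted from the back skin epidermis of female C57Bl/6 mice. All animals, those of the plates set apart included, received cycloheximide, which stalls ribosomes, into the tail vein and on the skin, and the cells were released with trypsin and sorted live. Young mice were 56 to 60 days old and old mice 22 to 26 months old, and each animal is called by its postnatal day. P57, P59 and P60 were young, while P662, P722 and P758 were old (n = 3 per age). P60 had 3 plates, P758 and P662 had 2 each, and the others 1. It was assumed that plates with the same day and age came from 1 animal. The same 384 well barcodes served the plates, and 383 of them occur in more than 1, and a shared barcode was taken as a shared well position and not as a shared cell. A plate of the P758 skin was digested with several nucleases, and another plate held cells of P57 and P679 skin without Sca-1, in which young and old wells could not be told apart here. No mRNA counts were used, so a level joins the amount of an mRNA with its translation.

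The epidermis between hair follicles renews from a basal layer that sits on a basement membrane and translates the keratins Krt5 and Krt14. Cells that leave it turn to Krt1 and Krt10, and the follicle has keratinocytes of its own, among them those of the upper follicle and of the outer bulge, where follicle stem cells reside. Most of the 8 genes encode proteins that act outside the cell. Igfbp3 binds insulin-like growth factors, Smoc2 is a calcium-binding matricellular protein of the SPARC family, Thbs2 is a thrombospondin of the matrix and Col16a1 a fibril-associated collagen. Il1r2 is the decoy receptor that captures interleukin 1 without signalling, and Slco2a1 carries prostaglandins into cells. Fcgbp is a large mucin-like protein named for its binding of the IgG Fc part, and Ctsl is a lysosomal cysteine protease.

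The 10 young and old plates held 1924 wells, and 1906 of them had at least 100 counts. Depth was uneven. P60 gave 2384294 counts and P758 gave 896688, while P662 gave 70549, P722 gave 12886, P59 gave 12371 and P57 gave 5230. Levels are given as counts per 1000000 counts of the same wells (CPM), so that a single count equals 191 CPM in P57 but 0.419 CPM in the deepest animal, P60. Wells were clustered without the 8 genes and the clusters were named from marker genes, which gave 761 interfollicular basal-like, 364 differentiated-like, 212 upper follicle-like, 100 outer bulge-like, 79 proliferating-like and 47 T cell-like wells, with 303 wells unnamed.

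The genes lie at 8 places on 7 chromosomes of the build GRCm38.p6. Igfbp3 is at chr11:7206086-7215498, Il1r2 at chr1:40084692-40125230, Slco2a1 at chr9:103007061-103096002, Fcgbp at chr7:28071236-28120864, Ctsl at chr13:64361890-64370772 and Col16a1 at chr4:130047817-130099277. Smoc2 at chr17:14279490-14404790 and Thbs2 at chr17:14665500-14694262 are neighbours, with 260.7 kb and 2 genes between them, neither of which codes for a protein. RefSeq promoters were found for 7 of the 8, Smoc2 being the one without. The 250 bases before the start of 1 transcript, which can lie within the whole extent of the gene, are shown for Igfbp3 and Il1r2, each of which was the closest or second closest gene to the other across wells, and for Slco2a1, which was found with Il1r2 in the same wells most above expectation. Capitals mark a TATATA in Igfbp3 (chr11:7213924-7214173, minus strand), CACGTG in Il1r2 (chr1:40085843-40086092, plus strand) and TATAAA in Slco2a1 (chr9:103008237-103008486, plus strand).
Igfbp3: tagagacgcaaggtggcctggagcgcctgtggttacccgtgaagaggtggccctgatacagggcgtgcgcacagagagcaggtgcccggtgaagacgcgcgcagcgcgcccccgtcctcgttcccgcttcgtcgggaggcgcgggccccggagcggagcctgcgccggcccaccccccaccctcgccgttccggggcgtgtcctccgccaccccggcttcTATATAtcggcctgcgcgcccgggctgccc
Il1r2: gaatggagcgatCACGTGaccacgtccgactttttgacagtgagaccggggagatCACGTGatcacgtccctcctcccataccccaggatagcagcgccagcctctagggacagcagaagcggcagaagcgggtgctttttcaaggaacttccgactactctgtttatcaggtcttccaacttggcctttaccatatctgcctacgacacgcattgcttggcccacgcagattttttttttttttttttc
Slco2a1: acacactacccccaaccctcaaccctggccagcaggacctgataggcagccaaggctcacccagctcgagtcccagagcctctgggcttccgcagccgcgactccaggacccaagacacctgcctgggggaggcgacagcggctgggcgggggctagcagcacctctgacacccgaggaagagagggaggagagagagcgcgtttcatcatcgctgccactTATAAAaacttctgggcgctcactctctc
The TATATA of Igfbp3 begins 30 bases before the start and the TATAAA of Slco2a1 begins 29 bases before it. CACGTG stands 2 times in the Il1r2 sequence. Motifs were searched on both strands, where TATATA and CACGTG read alike, and they were chosen after the sequences were seen. TATATA was in 2 of the 7 promoters (Igfbp3 and Fcgbp) and in 5.25% of the 32851 promoters of the table. TATAAA was in 2 (Slco2a1 and Thbs2) and in 12.4% of all, and CACGTG in 2 (Il1r2 and Ctsl) and in 6.02% of all. CCAAT was in 2 (Col16a1 and Thbs2) against 33.9% of all, GGGCGG in 2 (Col16a1 and Slco2a1) against 32.7%, and TGANTCA in 0 against 6.75%. No motif searched was shared by more than 2 of the 7.

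All 8 genes had a higher summed level in basal-like wells than in upper follicle-like and in outer bulge-like wells, but by very different factors. Igfbp3 and Il1r2 were nearly absent from upper follicle-like wells, while Fcgbp reached much of its basal-like level there. By a rule of at least 2 times the level of both follicle classes, 6 of the 8 genes passed, where 7.21% of the 10080 genes with at least 20 counts did. Fcgbp and Ctsl did not pass. The choice of the genes used these wells, so nothing is read from that count. A setting without clusters was also taken, but it makes another contrast. With classes set by marker counts, 111 wells with at least 2 follicle marker counts were set against 793 wells with fewer. The former had Krt5 and Krt14 not above Krt1 and Krt10, and the latter had them above. Follicle wells with mostly basal keratins are thus left out, so this is not the same follicle contrast. It cannot show how the follicle factors depend on the choice of wells. The log2 of the former over the latter was -1.67 for Igfbp3 and -6.42 for Slco2a1. By clusters, both follicle classes joined, the log2 of follicle over basal-like level was -5.03 and -1.59. All 8 genes were below 0 in both settings, but the wells set by marker counts differ in keratins as well as in follicle markers.

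Igfbp3 had 1860 CPM (95% Poisson interval 1787 to 1934) in basal-like wells, from 2488 counts in 282 wells. In upper follicle-like wells it had 1 count among 434767, which is 2.3 CPM, and the ratio of basal-like to upper follicle-like was 808.5 (145 to 31950). In outer bulge-like wells it reached 316 CPM (211 to 453), and the basal-like level was 5.89 times (4.09 to 8.82) that. The counting intervals of the 2 follicle classes did not meet for this gene. Of the 29 outer bulge-like counts 27 were from P60 and 11 came from 1 well, without which the level was 200.5 CPM. The near absence from the upper follicle was seen in both deeply covered animals. P60 had 0 counts in 114 upper follicle-like wells against 2172 in its basal-like wells, and P758 had 1 against 291.

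Il1r2 had 534 CPM (496 to 575) in basal-like wells, 13.8 CPM (5.07 to 30.0) in upper follicle-like and 0 counts in outer bulge-like wells. The basal-like level was 38.7 times (17.7 to 106) the upper follicle-like one, and at least 16.4 times the outer bulge-like one when 3 counts are taken as the floor. P60 had 1 follicle count of Il1r2 in all, and P758 had 4.

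Smoc2, Thbs2, Col16a1 and Slco2a1 were lower in follicle wells but present. Smoc2 had 995 CPM (942 to 1050) in basal-like wells, 239 (196 to 290) in upper follicle-like and 120 (59.8 to 214) in outer bulge-like wells. Basal-like over upper follicle-like was 4.16 (3.40 to 5.13) for Smoc2, 7.30 (5.12 to 10.8) for Thbs2, 3.99 (3.17 to 5.08) for Col16a1 and 2.67 (2.16 to 3.34) for Slco2a1. Basal-like over outer bulge-like was 8.31 (4.63 to 16.7) for Smoc2, 4.49 (2.49 to 9.03) for Thbs2, 4.76 (2.82 to 8.74) for Col16a1 and 7.83 (3.78 to 19.5) for Slco2a1. The outer bulge-like ratio was also taken by animal. For Smoc2 it was 15.3 (6.56 to 47.4) in P60, from 5 outer bulge-like counts, and 2.11 (0.949 to 5.82) in P758, from 6. In P758 the outer bulge-like level of Smoc2 (253 CPM) was above the upper follicle-like one (122 CPM, 13 counts). For Col16a1 the ratio was 4.05 (2.35 to 7.64) in P60, from 13 counts, and 12.8 (2.27 to 508) in P758, from 1 count. The Col16a1 intervals overlap, so no difference between the animals is read for it. Differences between animals were not tested. Slco2a1 was higher in upper follicle-like than in outer bulge-like wells, at 223 (181 to 272) and 76.2 CPM (30.6 to 157), and in P758 it had 0 counts in the latter. The outer bulge-like values of these genes over all animals rest on 7 to 14 counts each.

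Fcgbp reached 12460 CPM in basal-like and 7995 CPM in upper follicle-like wells, a ratio of 1.558 (1.502 to 1.617), and fell to 1328 CPM (1103 to 1585) in outer bulge-like wells. It also had 9889 CPM in proliferating-like wells, where the other members were present too. Basal-like over proliferating-like was 1.19 for Thbs2, 1.26 for Fcgbp, 1.90 for Col16a1, 2.085 for Smoc2 and 2.16 for Slco2a1. This ratio was 4.20 for Il1r2, 4.28 for Igfbp3 and 5.92 for Ctsl. For Thbs2 it was 1.07 in P60 and 2.02 in P758. A neighbouring gene, 9530053A07Rik, which carries FCGBP as a synonym and lies 8.60 kb away, had 9 counts in the whole series against 26438 of Fcgbp, and how reads shared by both genes were assigned was not tested. Ctsl had 314 CPM in basal-like, 106 in upper follicle-like and 163 in outer bulge-like wells. It differed by animal. In P60 its upper follicle-like level was 0.178 times the basal-like one, and in P758 it was 1.559 times (25 against 48 counts). One P758 well held 19 of the 25 counts behind that value, and without it the ratio was 0.402.

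**Figure D1:**
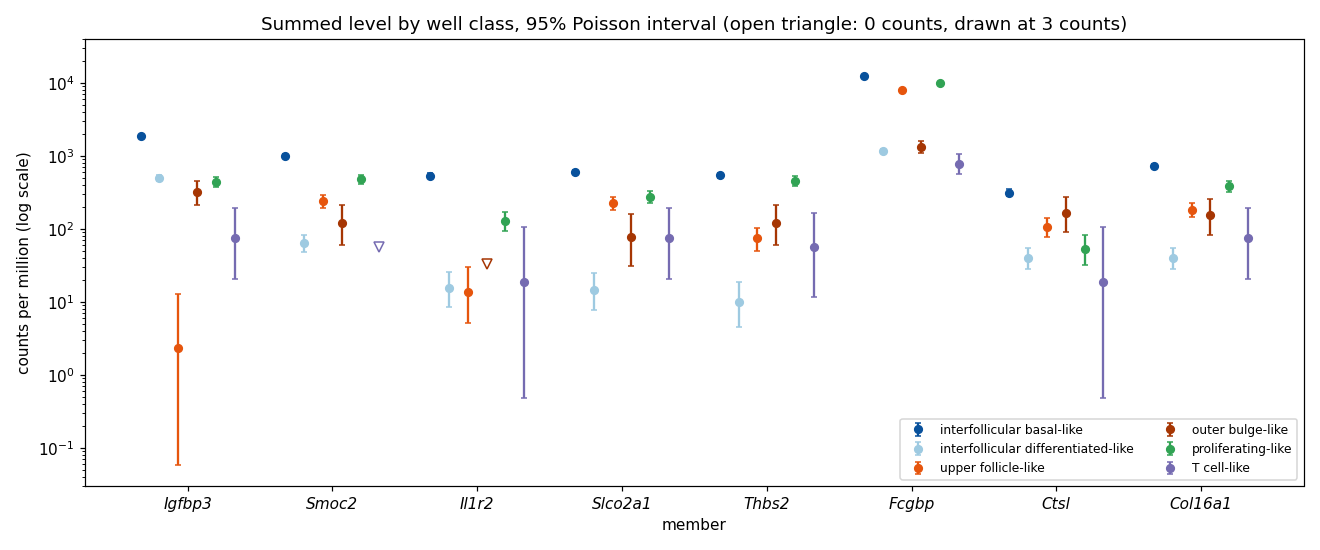
Summed level of each gene in CPM (log axis) in 6 classes of wells from the young and old plates, with 95% Poisson intervals as bars and an open triangle, drawn at the level of 3 counts, where a class had 0 counts. Igfbp3 stands at 2.3 CPM in upper follicle-like wells and at 1860 in basal-like wells, while Fcgbp is at 7995 and 12460 CPM.

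The genes also differed in how far their footprints reached beyond the basal layer. Igfbp3 kept 494 CPM (449 to 542) in differentiated-like wells, so that the basal-like level was 3.77 times (3.40 to 4.17) that. For the other 7 genes this factor was 7.89 for Ctsl, 10.8 for Fcgbp, 15.8 for Smoc2, 18.2 for Col16a1, 34.6 for Il1r2, 41.5 for Slco2a1 and 54.0 for Thbs2. Over all animals joined, the interval of Igfbp3 lay below that of every other member, the nearest being Ctsl at 5.61 to 11.4. The factor for Igfbp3 was 3.33 in P60 and 3.90 (3.00 to 5.12) in P758. In P758 the interval of Ctsl was 2.71 to 14.2, from 8 differentiated-like counts, and overlapped that of Igfbp3. The Igfbp3 counts were spread over 86 wells, and the highest of these had 43 of the 447, with 593 counts of Krt5.

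The wells of the interfollicular and unnamed clusters with at least 10 keratin counts were also ordered by a keratin share. This was the share of Krt1 and Krt10 among the counts of Krt1, Krt10, Krt5 and Krt14. These keratins are among the markers that named the clusters, so the order is not independent of the classes. Slco2a1 went from 656 CPM below a share of 5% to 334.5 at 5 to 25%, 74.1 at 25 to 50% and 3.16 at 95 to 100%. Thbs2 went from 593 to 293, 104 and then 0 CPM over these bins, and Il1r2 from 593 to 247, 163 and 1.58. Smoc2 went from 1072 CPM in the first bin to 163 at 25 to 50%, and Ctsl from 343 to 44.5. All 8 genes were lower at 25 to 50% than below 5%, in P60 and in P758 too. Igfbp3 went from 2022 to 1575 and 638 CPM over the first 3 bins. It then stood at 262 CPM at 50 to 75%, 743 at 75 to 95% and 314 (272 to 361) at 95 to 100%, so it did not fall steadily. In P60 the last bin had 433 CPM of Igfbp3 and in P758 it had 154.

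**Figure D2:**
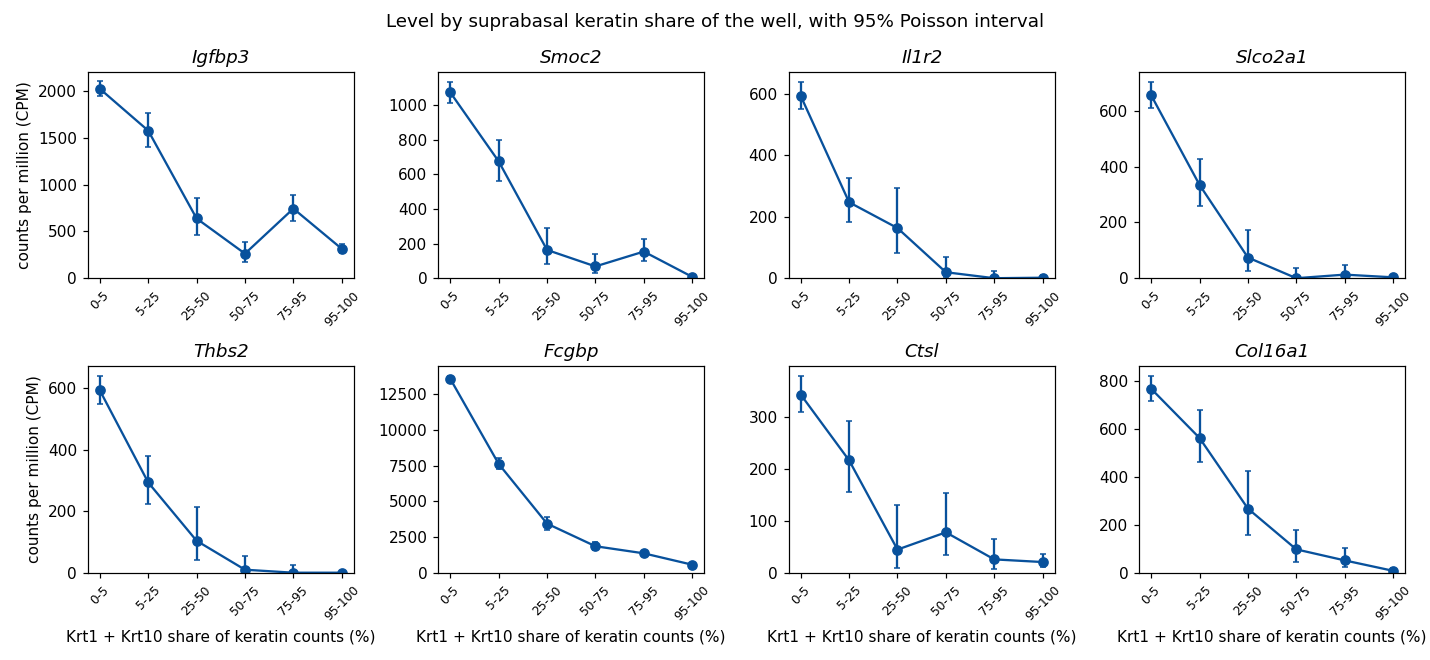
Level of each gene in CPM against the share of Krt1 and Krt10 among keratin counts of a well, in 6 bins over wells of all animals, with 95% Poisson intervals. Slco2a1, Thbs2 and Il1r2 reach 3.16, 0 and 1.58 CPM in the last bin, and Igfbp3 remains at 314 CPM.

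Depth of the well moved with the level. Within basal-like wells Igfbp3 had 648 CPM where a well had 100 to under 500 counts, 769.5 at 500 to under 2000 and 2504 at 2000 or more. Fcgbp had 4929, 6672 and 15940 CPM in these bins, and Il1r2 417, 432 and 595. In P758 alone Igfbp3 had 486, 562 and 1423 CPM. The deepest basal-like cluster, 135 wells with a median of 4240 counts, had 2870 CPM of Igfbp3, against 837 to 1031 CPM in the 3 other basal-like clusters of over 100 wells. An unnamed cluster of 31 wells had 1850 CPM. The part of depth in the levels was not tested. P60 gave 107 of the 135 wells of the deepest basal-like cluster, and 66 of 204, 103 of 219 and 116 of 169 wells of the 3 others. The part of the animal in the difference between these clusters was not tested either. Of the markers of other cells in basal-like wells, the 10 sebaceous ones summed to 590 CPM (3 of them at 0) and the 6 melanocyte ones to 126 CPM from 169 counts (1 at 0). In the deepest basal-like cluster, where Igfbp3 was highest among basal-like clusters, these were 581 and 224 CPM, the latter from 140 counts, and their part in the result was not tested. The 8 fibroblast markers summed to 99.4 CPM, against 707 in outer bulge-like wells, the 6 endothelial markers to 14.2 CPM and the 9 T cell markers to 8.22 CPM, and all 4 Merkel cell markers were at 0. The T cell-like wells had 75.4 CPM of Igfbp3, 18.9 of Il1r2 and 0 counts of Smoc2. The 13 Langerhans-like wells had 2082 CPM of Igfbp3, and 32 of those 35 counts came from 1 well that also had 251 Krt5 counts. Without that well the level was 261 CPM.

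Co-detection was measured in the 1329 wells with at least 500 counts, each thinned to 500 at random, as the number of wells with both genes over the number expected from their shares within each plate. All 28 pairs of the 8 genes were found together more often than expected. The median ratio was 1.57, with a range from 1.15 to 2.26, and the median over 12397710 pairs of 4980 genes was 0.965. At least 1.5 was reached by 16 of the 28 pairs and by 16.4% of all pairs. Since the genes were chosen as a group seen in these wells, this is a description.

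Igfbp3 and Smoc2 were found together in 77 wells where 49.5 were expected, a ratio of 1.56 (95% Poisson interval 1.23 to 1.94). Smoc2 was seen in 29.1% of the 265 wells with Igfbp3 and in 14.3% of the wells without it. The ratio was higher for Igfbp3 with Il1r2, at 48 against 21.7 wells or 2.21 (1.63 to 2.93), and for Il1r2 with Slco2a1, at 32 against 14.1 wells or 2.26 (1.55 to 3.20). The 3 highest ratios were all of Il1r2, the other partner being Ctsl with 12 wells against 5.48 or 2.19 (1.13 to 3.82). The lowest was that of Igfbp3 and Thbs2, with 34 wells against 29.6 or 1.15 (0.795 to 1.61), an interval that includes 1. Thbs2 with its chromosomal neighbour Smoc2 had 46 wells against 25.5 or 1.804 (1.32 to 2.41), and Thbs2 with Slco2a1 had 2.06 (1.47 to 2.82). Il1r2 with Thbs2 had 1.98 (1.27 to 2.95), with 24 joint wells. Its interval overlaps that of Igfbp3 with Thbs2, and the difference between the ratios was not tested. At the lower depth of 200 counts per well the highest pairs were also taken in each of the 2 deep animals. Igfbp3 with Il1r2 had 4 joint wells in each, a ratio of 1.09 (0.297 to 2.79) in P60 and 4.40 (1.20 to 11.3) in P758. Il1r2 with Slco2a1 had 0 joint wells against 1.79 expected in P60 (interval of the ratio 0 to 2.06). In P758 it had 3 against 1.11, a ratio of 2.71 (0.558 to 7.91). The intervals of the 2 animals overlap for both pairs, and a difference between the animals was not tested. At 500 counts Igfbp3 with Il1r2 had 2.06 without P758 and 2.82 without P60.

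**Figure D3:**
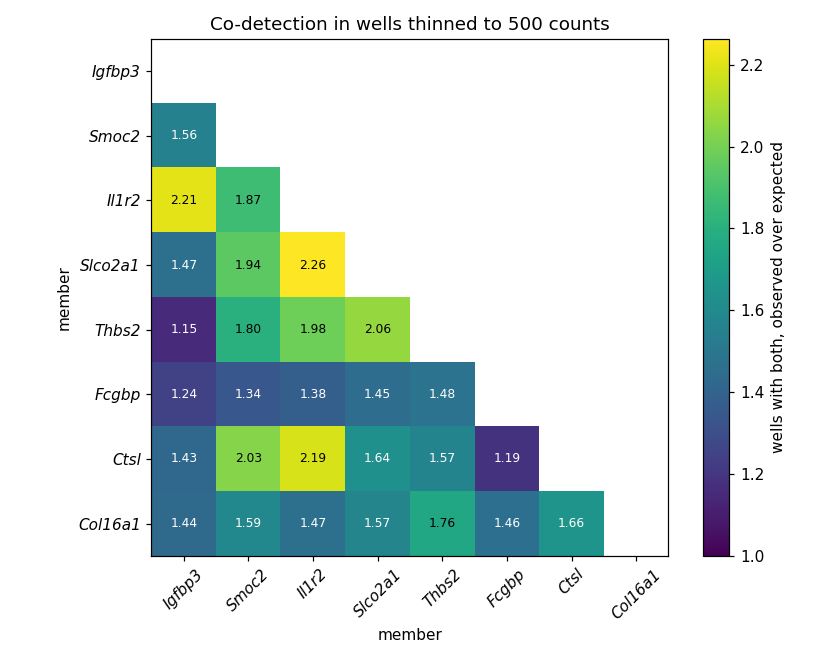
Wells with both genes of a pair, observed over expected from their shares within each plate, in 1329 wells thinned to 500 counts. The pairs of Il1r2 with Slco2a1 (2.26) and with Igfbp3 (2.21) are the highest, and that of Igfbp3 with Thbs2 (1.15) is the lowest.

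The ratios were lower within 1 class of wells. In the 587 basal-like wells alone the median ratio of the 28 pairs was 1.12, with a range from 0.80 to 1.48. None of the 28 reached 1.5 there, and Igfbp3 with Smoc2 had 1.12. Igfbp3 with Il1r2 had the highest value within basal-like wells, 1.48, and Igfbp3 with Thbs2 the lowest, 0.80. On log2(counts per 10000 + 1), centred per plate, the correlation across these 587 wells was 0.316 for Igfbp3 and Il1r2 and -0.106 for Igfbp3 and Thbs2. It was positive in 27 of the 28 pairs, with a median of 0.20. Neither the ratio nor the correlation was taken over all gene pairs within these wells, so neither is read as particular to the set. These values describe wells that share plates and depth, and no p was computed.

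Thinned to 500 counts, few wells showed most of the set at once. A basal-like well showed a median of 2 of the 8 genes, and 41 of the 587 (6.99%) showed 5 or more. Of the 304 differentiated-like, 155 upper follicle-like and 62 outer bulge-like wells of that depth, 0 showed 5 or more. Fcgbp was seen in 80.8% of thinned basal-like wells, Igfbp3 in 30.7%, Col16a1 in 30.3%, Smoc2 in 29.6%, Slco2a1 in 23.5%, Thbs2 in 20.1%, Il1r2 in 15.3% and Ctsl in 6.99%. In the upper follicle-like wells Fcgbp was seen in 61.9%, and Igfbp3 in 0.645%. At 500 counts a well without a count may still translate the gene. Without thinning, the 190 basal-like wells of at least 2000 counts had Fcgbp in 97.9%, Smoc2 in 91.6%, Slco2a1 in 78.4% and Col16a1 in 74.7%. Il1r2 was in 72.1% of them, Igfbp3 in 65.8%, Ctsl in 61.05% and Thbs2 in 57.4%. The small share at 500 counts is therefore not read as few cells translating most of the set.

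The nuclease plate, which is of animal P758, was not clustered. There 185 wells had at least 200 counts, and after thinning to 200 the 28 pairs gave 48 joint detections where 29.2 were expected, a ratio of 1.64. Most single pairs were too rare to read, and 11 of the 28, Igfbp3 with Smoc2 among them (0 against 0.351), had no joint well. The pairs with most joint wells were those of Fcgbp, which was seen in 74 of the 185 wells. It had 8 with Col16a1 and 7 each with Slco2a1 and Thbs2, and with Igfbp3 5 against 5.2 expected. No ratio over all gene pairs was taken at 200 counts, so no value at this depth is read as particular to the set. The young and old plates gave 676 against 401 at the same depth, or 1.69. P60 alone had 1.46, P758 had 1.87 and P662 had 1.30, the last from 8 joint detections. Igfbp3 with Smoc2 had 1.27 (0.692 to 2.12) in P60 and 0.985 (0.0249 to 5.49) in P758, the latter from 1 joint well. The Sca-1-negative plate had 26 such wells and 0 joint detections where 0.50 were expected, so that it gave no information on pairs.

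Among 6521 other genes seen in at least 5% of the 1329 wells, those most like the summed level of the 8 genes were Krt5 (r = 0.62), Krt14 (0.615), Col17a1 (0.507), Lamb3 (0.498), Itgb4 (0.495), Tnxb (0.488), Jag2 (0.48), Col7a1 (0.476), Itga6 (0.457) and Krt15 (0.457). Col17a1, Lamb3, Itgb4 and Itga6 encode parts of the hemidesmosome and its laminin, Col7a1 the anchoring fibril, and Jag2 a Notch ligand. The lowest were Krt10 (-0.513), Krt77 (-0.488), Krtdap (-0.478), Krt1 (-0.456) and Skint6 (-0.411). Fcgbp carries most of the sum. With Fcgbp left out Krt5 stood at 0.546 and Krt10 at -0.424, and 8 of the 10 genes named first kept a place within the first 10. Taken one at a time, the closest gene to Igfbp3 was Il1r2 (r = 0.365 among 6528 genes) and the closest to Il1r2, Thbs2 and Ctsl was Smoc2 (0.37, 0.362 and 0.268). Thbs2 was at rank 1581 for Igfbp3, with r = 0.051.

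Of the 82 related genes listed by family, 42 had at least 20 counts. By level, 5 of those (Il1rn, Il1rap, Il33, Ptges and Abcc4) were at least 2 times as high in basal-like as in both follicle classes. The share was 7.21% over all 10080 genes with at least 20 counts. The outer bulge-like levels of these 5 genes rest on 0 to 3 counts each, so nothing is read from their number. Of the other IGF genes, Igf1 and Igfbp1 had 0 counts and Igf2 had 1, and the receptor Igf1r had 198 CPM in basal-like and 283 in outer bulge-like wells. Igfbp4 ran the other way from Igfbp3, with 5.23 CPM in basal-like wells, 98.9 in upper follicle-like and 185 in outer bulge-like. Of the SPARC family, Sparc had 142 CPM in basal-like and 348 in outer bulge-like wells, and Smoc1 had 5 counts in all. In the interleukin 1 family the ligand genes Il1a and Il1b had 1 and 3 counts. The signalling receptor Il1r1 had 64.3 CPM in basal-like wells, 36.5 in differentiated-like and 46.0 in upper follicle-like, and Il33 had 302 CPM in basal-like and 43.1 in differentiated-like wells. Among prostaglandin genes, Ptgs1, a cyclooxygenase, had 71.8 CPM in basal-like and 667 in differentiated-like wells, the reverse of Slco2a1. Thbs1 had 466 CPM in basal-like wells, as Thbs2 is high there, but 914 in outer bulge-like wells where Thbs2 had 120. The collagen Col12a1 had 153 CPM in basal-like and 1012 in outer bulge-like wells, against 725 and 152 for Col16a1. Among cathepsins and cystatins the highest counts were those of Cst3 and Ctsb, with 455 and 518 CPM in basal-like wells and 743 and 897 in upper follicle-like ones.

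Whether the genes differ with age was tested over animals. Summed over all wells of at least 100 counts, where a lower share of basal-like wells and fewer footprints per well cannot be told apart, Igfbp3 had 0 CPM in P57, 242.5 in P59 and 1190 in P60, and 213 in P662, 1164 in P722 and 442 in P758. The old animals had a mean of 606 ± 497 CPM and the young ones 478 ± 629 (SD, n = 3 per age). Smoc2 had 0, 323 and 628 CPM in the young animals and 170, 543 and 261 in the old ones. Il1r2 had 0, 242.5 and 247 CPM in the young and 28.4, 854 and 232 in the old. The ages overlapped in each of the 3 genes, and the animals of one age differed several-fold.

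edgeR's quasi-likelihood test with Benjamini-Hochberg adjustment called none of the genes tested (0.0%), and 25 had an unadjusted p under 0.05. By DESeq2 the calls were also 0, and 6 genes reached that unadjusted level. Low counts kept Slco2a1 and Ctsl out of the test. The 6 tested genes of the set each had a log2 difference of old minus young below 0, with a median of -0.34 against 0.03 over all genes, of which 46.7% were below 0. These signs run against the plain means over animals, which were higher in old for 5 of the 6 (not Fcgbp). Thus Smoc2 had 325 ± 195 CPM in old and 317 ± 314 in young animals, Il1r2 371 ± 430 and 163 ± 141, Thbs2 341.5 ± 177 and 298 ± 106.5, and Col16a1 238 ± 97.1 and 228 ± 221 (SD, n = 3 per age). No direction with age is read from either, and the cause of the disagreement was not tested. Smoc2 had the largest size at -0.99 (SE 0.46, edgeR adjusted p = 0.998) and Col16a1 had -0.69 (SE 0.40), and the adjusted p was 0.998 for all 6. The log2 difference was -0.54 (SE 0.85) for Igfbp3, -0.13 (SE 0.48) for Fcgbp, -0.12 (SE 0.33) for Thbs2 and -0.08 (SE 0.70) for Il1r2. It was 0.45 for Fcgbp without P60, 0.027 for Igfbp3 without P662 and 0.65 for Il1r2 by DESeq2, so that these signs depend on 1 animal or on the tool. With no filter on low counts 111 genes were called, none of them among the 8. No gene of the 6 had animals of the 2 ages that did not overlap, while 8.59% of the genes tested did.

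**Figure D4:**
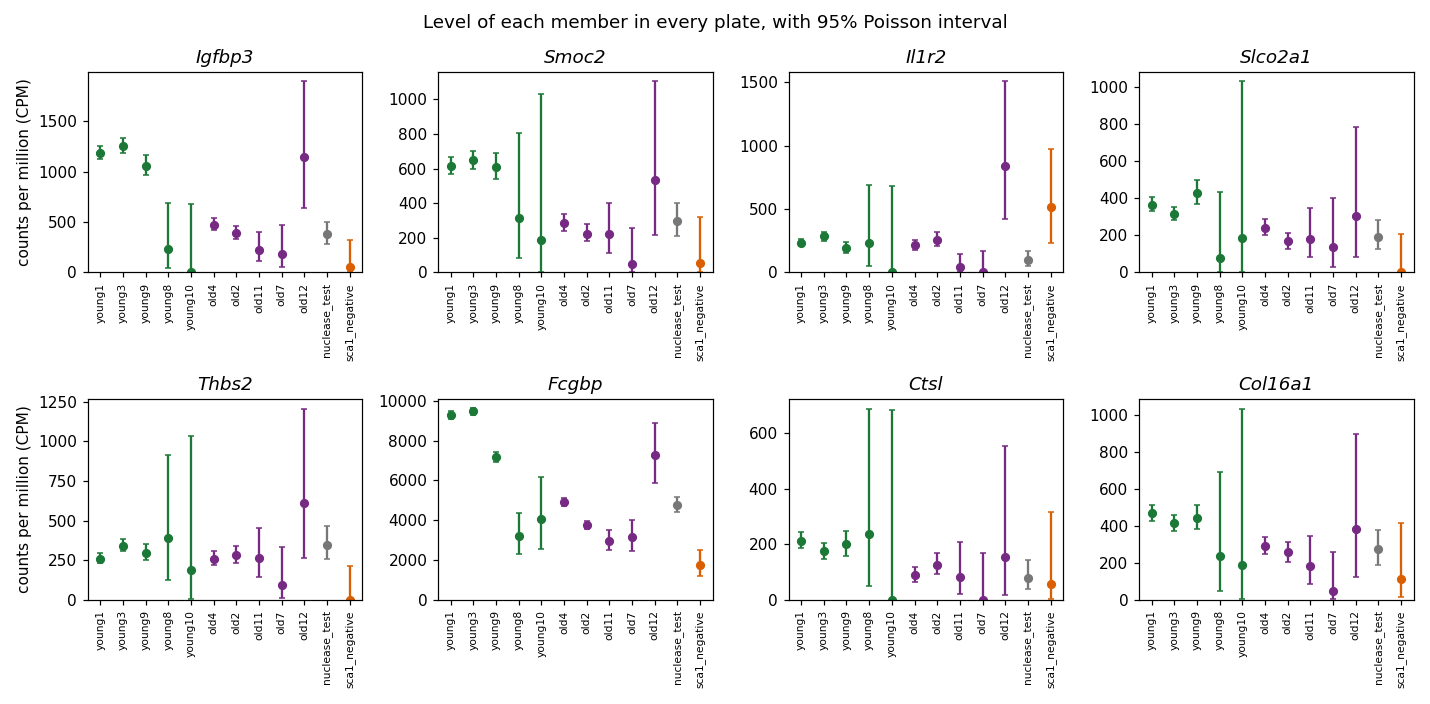
Level of each gene in CPM in each of the 12 plates, with 95% Poisson intervals (green young, purple old, grey nuclease plate, orange Sca-1-negative plate). The P60 plates (young1, young3 and young9) have 1058 to 1255 CPM of Igfbp3 and the P758 plates (old2 and old4) 395 to 474, and the shallow plates are at 0 and 235 (young10 and young8) and at 183, 223 and 1149 (old7, old11 and old12).

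In basal-like wells alone P57 had 1 well and was left out, which leaves 2 young and 3 old animals. Igfbp3 had 703 CPM in P59 and 2206 in P60, and 289 in P662, 2352 in P722 and 914 in P758. Smoc2 had 469 and 1161 CPM in the young and 372, 1098 and 534 in the old animals. Col16a1 had 703 and 796 CPM in the young and 330, 470 and 540 in the old, so that its ages did not overlap. The values of Col16a1 in P59 and P722 rest on 3 counts each. Ctsl did not overlap either, with 469 and 372 CPM in the young and 82.6, 314 and 151 in the old, from 2 to 48 counts in every animal except P60. Ctsl did not pass the filter on low counts, so Col16a1 was 1 of 7 tested genes of the set without overlap, where 13.7% of all 461 genes tested had none.

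The test called 0 of these 461 genes (0.0%), and so did DESeq2. An unadjusted p under 0.05 was reached by 12 genes in edgeR and by 2 in DESeq2. The log2 difference of old minus young was -0.87 for Smoc2 (SE 0.47, edgeR adjusted p = 0.993), -0.78 for Igfbp3 (SE 0.74), -0.72 for Col16a1 (SE 0.40), -0.46 for Fcgbp (SE 0.42) and -0.44 for Slco2a1 (SE 0.39). For Il1r2 it was 0.03 (SE 0.68) and for Thbs2 0.10 (SE 0.44), and the adjusted p was 0.993 for all 7. Without P60 it was 0.66 for Smoc2, 0.82 for Igfbp3 and 0.79 for Fcgbp, so that their sign rests on that animal. The median of the 7 genes was -0.46 against 0.05 over all genes tested, of which 44.9% were below 0. A difference of age was not detectable for any tested gene of the set at this depth. Of the 82 related genes listed beside the 8, 4 were tested over all wells (Thbs1, Ctsb, Cst3 and Cst6) and 4 in basal-like wells (Il33, Thbs1, Ctsb and Cst3), and 0 were called.

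**Figure D5:**
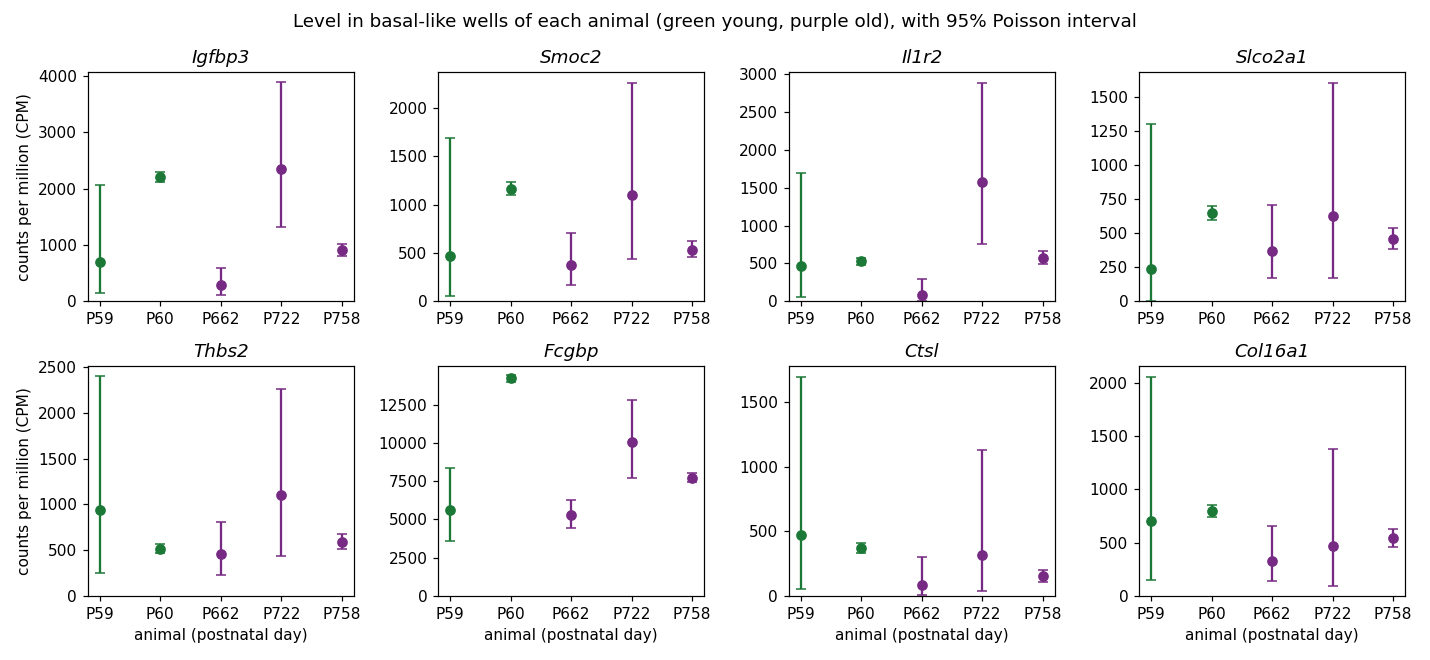
Level of each gene in CPM in the basal-like wells of the 5 animals that had at least 5 such wells, with 95% Poisson intervals. The old animal P722 (2352 CPM of Igfbp3) stands with the young animal P60 (2206), and the old animal P662 (289) is the lowest.

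The plates of the 2 deeply covered animals did not overlap in 6 of the 8 genes. Igfbp3 had 1186, 1255 and 1058 CPM on the 3 plates of P60 and 395 and 474 on the 2 plates of P758. Smoc2 had 617, 648.5 and 611 CPM on the former and 225 and 286 on the latter. All plates of P60 were above all plates of P758 in Igfbp3, Smoc2, Slco2a1, Fcgbp, Ctsl and Col16a1, by 1.62 to 2.69 times in the means, where 18.6% of 7242 genes with at least 20 CPM had that order. The reverse order, also without overlap, was seen in 14.1% of those genes and in 0 of the 8. Il1r2 was at 194 to 284 CPM in P60 and at 214 to 258 in P758, and Thbs2 at 260 to 341 and at 259.5 to 282, so that these overlapped. This sets 1 animal beside another, and age cannot be told apart from the animal. Basal-like wells were 40.3% of those of P60 and 35.7% of those of P758, and the median well had 1352 and 865 counts. On the nuclease plate of the P758 skin Igfbp3 had 380 CPM, Smoc2 294 and Fcgbp 4788, close to the other P758 plates, and Il1r2 had 101 CPM (13 counts) where those had 214 and 258.

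The Sca-1-negative plate, which had 0 counts of Ly6a, the gene of Sca-1, held 17549 counts in 54 wells. Ly6a was also at 0 on the shallow plates old7 and young10. There was 1 count each of Igfbp3, Smoc2 and Ctsl, 0 of Slco2a1 and of Thbs2, 2 of Col16a1 (114 CPM) and 31 of Fcgbp (1766 CPM). Il1r2 had 9 counts or 513 CPM (234.5 to 973.5) there, and was the only member other than Fcgbp with more than 2 counts on that plate. The P60 plates had 194 to 284 CPM of Il1r2, and all old plates 0 to 842. The interval overlaps these ranges, so no excess is read.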

How the data were processed

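Epidermal cells were sorted 1 per well into plates and footprint libraries were made, per the labels' protocols. The deposited files give whole-number counts per gene and well. Bowtie2, STAR, fastp, featureCounts and UMI-tools are the tools named, with GRCm38.p6, per the submitters' processing notes. Their versions, settings and any filter on wells were not given in the sources used here. The 12 plates had 5401 to 1019564 counts. The 8 genes and all gene lists were chosen with earlier results of these data known.

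Wells of the young and old plates with at least 100 counts were clustered in scanpy 1.11.5 (1500 variable genes without the 8, centred per plate, 15 components, 15 neighbours, Leiden resolution 1), which gave 17 clusters. A cluster was named for its best marker list, by mean log2 ratio to the other wells, if this was at least 0.25, with at least 3 and at least 50% of its markers higher. No other list could have more markers among the leading genes of the cluster. A cluster with no marker of its list among these genes was left unnamed if its wells were shallow for their plates. These thresholds were set after the clusters were seen. Doublets were not called, since the protocols state a sort of single cells, and whether a well held more than 1 cell was not tested. Wells with markers of different cells, such as the Langerhans-like well with 251 Krt5 counts, were kept. CPM are of summed counts. Intervals (95%, exact Poisson) and the floor of 3 counts cover counting error only. No coding lengths were used, so levels are compared within a gene and not between genes.

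Age was tested with edgeR 4.0.16 in R 4.3.3 on counts summed per animal (TMM, filterByExpr, robust quasi-likelihood, Benjamini-Hochberg over all genes tested at 0.05), with DESeq2 1.42.0 as an alternative. The SE is the log2 difference over the square root of F. The test and the pair ratio were run on simulated data. Other alternatives were the filters, minimum counts per well, clustering settings and animals or plates left out. By the rule for names, all 8 genes are named, with the 10 most and 5 least like genes across wells, and related genes by counts or highest level. Related genes beyond that were picked for display after their values were seen. Of the symbols 21754 matched RefSeq and 662 did not. The age of wells on the Sca-1-negative plate was not analysed here.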

Additional observations from a re-analysis of the deposited data

Results flagged for a closer look

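Among the 5 young and the 5 old plates, the highest and the lowest plate of each gene were compared with the rest by Dixon's criterion. It set apart 1 value in 16 groups of plates, which is about what chance gives at 1 in 20 groups. Ctsl was at 0 CPM on plate young10 (P57), where the next young plate had 174 CPM, and that plate had 5401 counts, so that 1 count would have been 185 CPM.

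The Sca-1-negative plate entered no test. All 9 Il1r2 counts of that plate were in 4 of the 13 wells with at least 2 counts of the MHC class II genes H2-Aa, H2-Ab1, H2-Eb1 and Cd74, which mark Langerhans and other antigen presenting cells. The level in these wells was 2136 CPM (95% Poisson interval 977 to 4054), and the 41 other wells had 0 counts among 13335 (up to 277 CPM). The 13 wells had 7 counts of Krt5 and Krt14 in all. On the young and old plates Il1r2 had 260 CPM (156 to 405) in the 36 wells with at least 2 such counts and 240 CPM (224 to 257) in the others, and there the 36 wells had 2104 counts of Krt5 and Krt14. The wells were split after their values were seen, from 1 plate, and the difference was not tested.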

How the results depend on the processing

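The count of genes called for age was 0 in the main setting and over all wells stayed 0 with DESeq2, with other minimum counts per well and with any animal or plate left out. With no filter on low counts 111 genes were called over all wells and 36 in basal-like wells, and 45 and 17 where genes needed 20 CPM on average. In basal-like wells 10 genes were called in wells with at least 500 counts and 14 without centring per plate, which both leave 3 animals, and 0 to 16 with an animal left out (12 without P59, 16 without P662, 12 without P722). None of the 8 genes was called in any setting in which it was tested. The cause was not tested.

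The log2 difference of old minus young changed sign in these settings. Over all wells it was 0.027 for Igfbp3 without P662, 0.26, 0.29, 0.65 and 0.034 for Il1r2 (no filter, 20 CPM, DESeq2, without plate old4), 0.10 and 0.17 for Thbs2 (no filter, 20 CPM) and 0.45 for Fcgbp without P60. In basal-like wells without P60 it was 0.82 for Igfbp3, 0.66 for Smoc2, 0.79 for Fcgbp and -0.19 for Thbs2, so the sign of the first 3 rests on P60. It was -0.20 for Il1r2 without P59, -0.20 without P722, -0.65 in wells of at least 500 counts and -0.68 without centring. For Thbs2 it was -0.007 without P59, -0.27 in wells of at least 500 counts, -0.62 without centring and -0.043 in wells of the basal keratin range.

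The median log2 of the follicle over the basal-like level was -2.11. It was -1.82 in wells of at least 500 counts and -2.23 to -1.90 with an animal left out. With classes set by marker counts it was -4.76, and Igfbp3 was at -1.67. The follicle wells of that setting leave out those with mostly Krt5 and Krt14, so it is not the same contrast. Without P60 Ctsl turned to 0.50. In both follicle classes of P758 the log2 ratio of Ctsl to its basal-like level was 0.61, and the level was 0.595 times the basal-like one without 1 well, a setting chosen after seeing the data. The median pair ratio was 1.75 thinned to 200 counts, 1.42 at 1000, 1.18 stratified by plate and class, 1.12 in basal-like wells and 1.51 to 1.77 with an animal left out. The ratio of Igfbp3 and Thbs2 fell to 0.81 stratified by plate and class and to 0.80 in basal-like wells. Without P60 Igfbp3 with Smoc2 had 1.17. P57, P59 and P722 had 5230, 12371 and 12886 counts, which limits every comparison of ages. No paired analysis was possible because the plate numbers of young and old animals mark different animals.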
